A study of Mus musculus with 172 samples.

Results

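The genes described here build peroxisomes or carry out the oxidation reactions inside them. They were chosen by symbol alone: the peroxin genes (Pex followed by a digit), the acyl-CoA oxidases (Acox), the ABC transporters of the D family (Abcd), the thiolases Acaa1a and Acaa1b, and Ehhadh, Hsd17b4, Scp2, Crot, Phyh, Hacl1, Ech1, Pecr, Amacr, Decr2, Cat and Ppara. Of the 16308 genes listed in cortex or liver, 38 matched. All 38 are listed in liver, among 14107 genes, and 36 are listed in cortex, among 14896 genes. Acox2 and Pex11g are the members listed in liver only.

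Peroxisomes are single-membrane organelles that shorten very-long-chain and branched fatty acids, make ether lipid precursors and bile acid intermediates, and break down the hydrogen peroxide that their oxidases release. Their matrix proteins are made in the cytosol, are recognised by the soluble receptors PEX5 and PEX7, dock at PEX13 and PEX14, and enter folded. The receptors are then ubiquitinated by a ligase complex that holds PEX2 and PEX10, and are pulled out of the membrane by an ATPase complex that holds PEX6 and is anchored by PEX26. PEX3, PEX16 and PEX19 insert membrane proteins, and PEX11 proteins elongate the organelle before it divides. In liver, the nuclear receptor PPARalpha, encoded by Ppara, drives many genes of fatty acid oxidation during fasting.

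Male mice aged 11 to 14 weeks were kept awake by gentle handling for 6 h from light onset (sleep deprivation, SD) or were left undisturbed (controls, Ctr), and both were killed at ZT6, 6 h after light onset. The mice came from 33 BXD/RwwJ lines, which are recombinant inbred lines derived from C57BL/6J and DBA/2J, from both parental strains, each sampled at the start and at the end of a collection of 2 years, and from the reciprocal F1 hybrids "C57/BL/J x DBA/2J F1" and "DBA/2J x C57/BL/J F1". RNA of usually 3 mice of a line, tissue and condition was pooled into 1 library, which gave 39 pools per condition in each tissue, so that differences between single mice cannot be seen. The libraries of 4 BXD/TyJ lines entered only an alternative fit. In cortex 18995492 to 28998853 reads were counted per library (median 22584170), and in liver 4681101 to 8269401 (median 6661668). Levels are log2 CPM (counts scaled to the total of the library, on a log2 scale), and a change is the SD pool minus the Ctr pool of the same line. In bulk tissue, fewer cells of a type and less RNA per cell cannot be told apart. Of the cell type markers examined, all 6 for neurons, astrocytes and oligodendrocytes were listed in cortex, where 5 of the 7 hepatocyte genes (Alb, Apoa1, Fga, Serpina1a and Cyp2e1) were not and Ttr and Cps1 together had 2.5 to 219 CPM in Ctr pools. All 7 hepatocyte markers were listed in liver. Of the neuron markers, Snap25, Slc17a7, Gad1 and Gad2 were not listed there, and Syt1 and Rbfox3 together had 45.3 to 113 CPM in Ctr pools.

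Certain liver libraries stood apart. The Ctr pool of the DBA/2J x C57/BL/J F1 (DB-F1), with 5034166 reads, had the highest Ctr level of 25 of the 38 members, and DB-F1 showed the lowest change of 21 members. The SD pool of BXD70, with 4681101 reads the smallest of the 78 liver libraries, had the highest SD level of 20 members, and BXD70 showed the highest change of 19. In cortex BXD90 had the highest Ctr level of 10 of the 36 members. The counts of members that rose or fell after SD in liver are therefore also given below without DB-F1 and BXD70.

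Liver reads also did not follow the library total in the same way for all genes. Among liver genes with a mean of at least 100 reads, the slope of log2 reads on log2 library total, which is 1 where reads grow in proportion, had a median of 1.57 below 0.05 reads per exonic base and of 0.393 at 0.4 or more. In cortex the medians of the same density classes lay between 0.987 and 1.01. In liver 23 of the 38 members had 0.2 or more reads per exonic base. Catalase (Cat), which degrades hydrogen peroxide, had 1.23 reads per exonic base in liver and a slope of 0.11. Phyh, the hydroxylase that starts the alpha-oxidation of phytanic acid, had 1.02 and a slope of 0.10. The slope of Abcd2 was 1.88 at 0.0324 reads per base. Its liver level differed widely between lines, and the part of this in its slope was not tested. A level or a change of a dense member in liver is thus to be read beside its slope on library total.

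**Figure D1:**
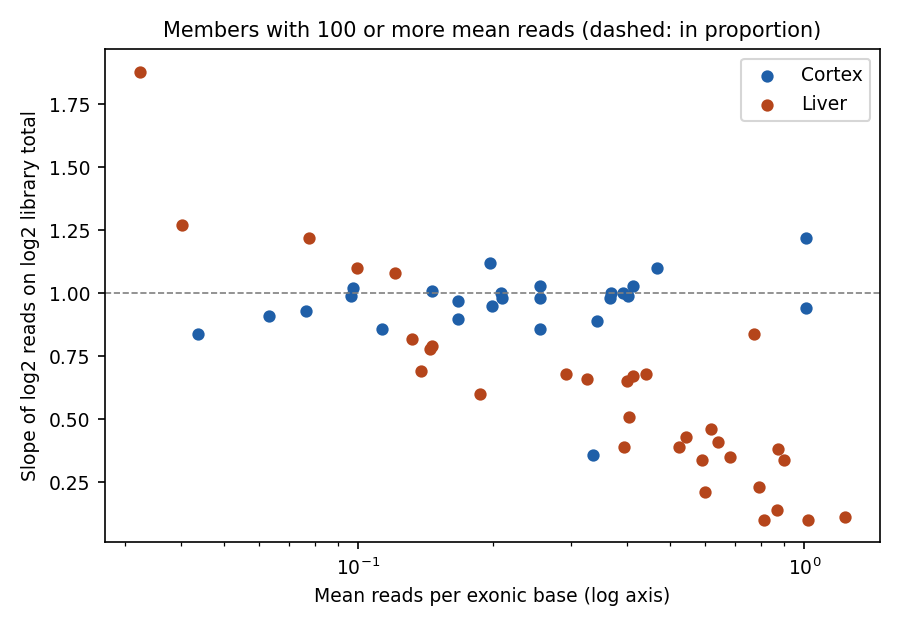
Slope of log2 reads on log2 library total against mean reads per exonic base (log axis) for the members reported here with 100 or more mean reads, each point a member in cortex (blue) or liver (orange); the dashed line marks reads that grow in proportion to the total. Liver members fall from 1.88 (Abcd2) to 0.10 (Phyh and Scp2) as density rises. The low cortex point at 0.36 is Acaa1a, whose level differs widely between lines, as does that of Abcd2 in liver.

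Per exonic length, the members were led in Ctr cortex by Phyh at 46.4 RPKM (CPM per kilobase of exon) and Pex5l at 43.3 RPKM. Pex5l encodes a neuronal relative of PEX5 that regulates HCN channels. The lowest member in cortex was Acaa1b at 0.565 RPKM. In Ctr liver the order was led by Cat at 185 RPKM, Phyh at 151 RPKM, Abcd3 at 135 RPKM and Hsd17b4 at 133 RPKM. Abcd3 encodes the transporter PMP70 and Hsd17b4 the D-bifunctional protein. The lowest liver members were Pex5l at 0.0888 RPKM, from a mean of 2.9 reads, and Abcd2 at 3.64 RPKM. Levels were not tested between tissues, because their tables were normalized apart.

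The first question was how the members changed after SD in cortex. Most of them passed the test, with more falls than rises and mostly small changes. Of the 36 members, 30 passed (83.3%), beside 76.3% of all genes listed in cortex. A rise was called for 10 members, beside 36.6% of all genes, and a fall for 20 members, beside 39.6%. The median absolute change was 0.136 over the members and 0.125 over all genes, and the median change was -0.06 over the members and -0.01 over all genes. The change had the same sign in at least 37 of 39 lines for 11 members. This was not counted over all genes, so it does not set the members apart. For no member were the ranges of Ctr and SD pools separate, as they were for 1.4% of all genes. Among the cell type markers, 5 of 6 astrocyte genes rose in cortex, with changes of the list from -0.02 to 0.70 and a summed level of 4130 to 6660 CPM in Ctr pools and 4770 to 6980 CPM in SD pools. Of the neuron markers 1 rose and 3 fell of 6, with a summed 7850 to 8890 CPM in Ctr pools and 7630 to 8570 CPM in SD pools. Of the oligodendrocyte markers 1 rose and 3 fell of 6, and of the microglia markers 1 rose and 3 fell of 5. Of the genes of the hepatocyte list that were listed in cortex, Cps1 fell by 0.51 and Ttr did not pass. Of the 3 listed choroid plexus markers 0 rose and 0 fell. The Kupffer cell and B cell markers were not listed in cortex. The part of these cell types in the changes below was not tested.

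**Figure D2:**
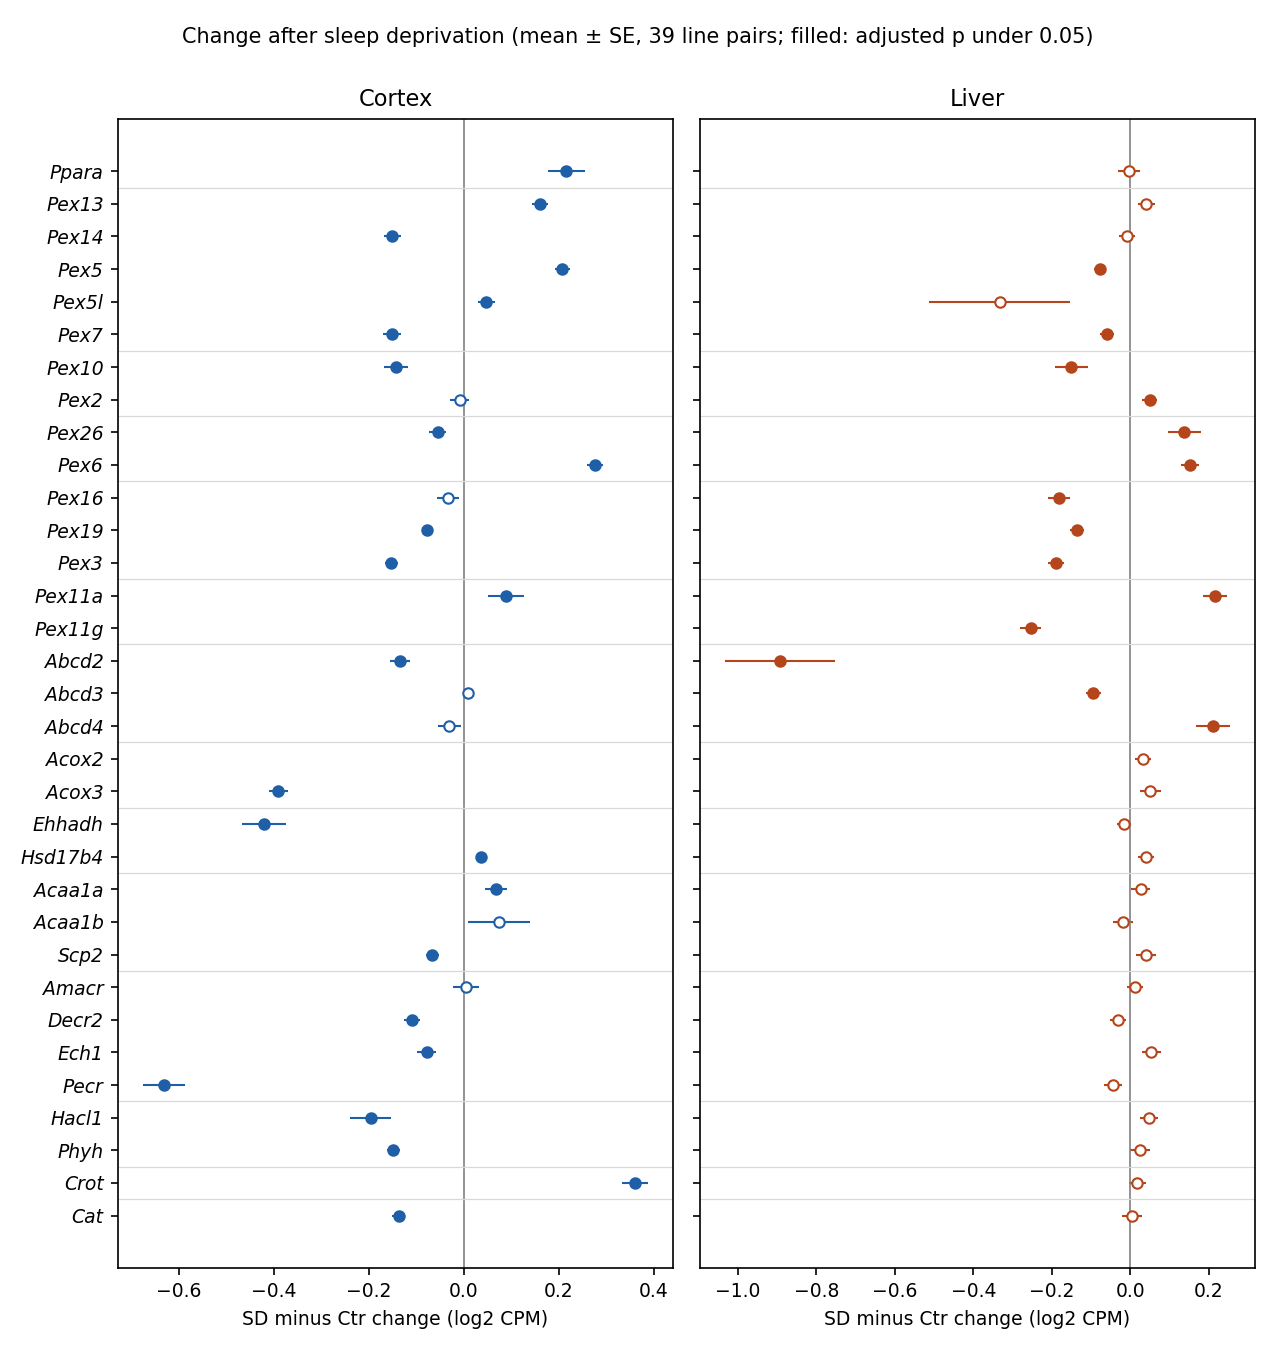
Change after SD (SD minus Ctr, log2 CPM) of the members reported here in cortex (left) and liver (right), ordered by role with grey lines between roles; points are means over 39 line pairs, bars are 1 SE, filled points passed at an adjusted p under 0.05, and the panels have different scales. In cortex Pecr lies lowest at -0.63 and Crot highest at 0.36, and in liver Abcd2 lies lowest at -0.89 while the oxidation enzymes stand near 0.

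Ppara, the regulator, rose in cortex. Its level ran from 2.15 to 3.12 in Ctr pools (median 2.79) and from 2.46 to 3.46 in SD pools (median 2.93). The ranges overlapped broadly, but the SD pool was the higher of the pair in 34 of 39 lines. The change was 0.22 ± 0.039 (SE), with an adjusted p of 3.5e-06, and ran from -0.26 in the C57/BL/J x DBA/2J F1 (BD-F1) to 0.90 in BXD95.

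Of the 15 oxidation enzymes listed in cortex, counted with Crot and Cat, 10 fell, 3 rose and 2 did not pass. The largest fall was that of Pecr, the peroxisomal trans-2-enoyl-CoA reductase. Its level ran from 1.29 to 2.21 in Ctr pools (median 1.98) and from 0.37 to 1.74 in SD pools (median 1.35), and it was lower after SD in all 39 lines. The upper SD pools reached into the Ctr range, and the lowest SD pool was that of BXD90. The change was -0.63 ± 0.044 (SE, adjusted p = 1.04e-17), from a mean of 71.6 reads, and ran from -1.48 in BXD90 to -0.11 in BXD67.

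Ehhadh, the L-bifunctional enzyme of peroxisomal beta-oxidation, ran from 1.17 to 2.34 in Ctr pools (median 1.90) and from 1.04 to 1.77 in SD pools (median 1.5). It fell in 37 of 39 lines, by 0.42 ± 0.046 (SE, adjusted p = 1.94e-11), with overlapping ranges and a mean of 73.3 reads. BXD45 went against the others with a change of 0.40. Acox3, the oxidase of branched acyl-CoAs, ran from 5.31 to 5.82 in Ctr pools (median 5.64) and from 5.04 to 5.45 in SD pools (median 5.23). Only a few Ctr pools reached down into the SD range, and the level was lower in all 39 lines. The change of Acox3 was -0.39 ± 0.02 (SE, adjusted p = 1.93e-22), between -0.57 in BXD43 and -0.07 in BXD89.

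Both enzymes of alpha-oxidation fell. Hacl1, the lyase that removes a carbon from 2-hydroxy acyl-CoAs, ran from 1.72 to 2.54 in Ctr pools (median 2.20) and from 1.59 to 2.32 in SD pools (median 2.04). The change was -0.20 ± 0.043 (SE, adjusted p = 8.28e-05), with a fall in 29 of 39 lines and wide overlap. Phyh changed less, by -0.15 ± 0.013 (SE, adjusted p = 3.88e-14), but was lower in all 39 lines. Cat ran from 5.18 to 5.91 in Ctr pools (median 5.44) and from 5.04 to 5.63 in SD pools (median 5.33), and fell by 0.14 ± 0.014 (SE, adjusted p = 1.09e-11) in 37 of 39 lines. Its ranges overlapped over most of their length.

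The smaller falls were those of Decr2, the dienoyl-CoA reductase, at -0.11, Ech1, a dienoyl-CoA isomerase, at -0.078, and Scp2, whose longer form is a thiolase for branched substrates, at -0.066. Hsd17b4 rose by 0.037 ± 0.01 (SE, adjusted p = 0.00153), a call that was lost under quantile normalization (0.01, adjusted p = 0.388). Amacr, the racemase of branched acyl-CoAs, did not pass (0.005 ± 0.027, adjusted p = 0.865).

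The enzyme that rose most was Crot, the carnitine octanoyltransferase that hands shortened acyl groups on for export. Its level ran from 4.93 to 5.38 in Ctr pools (median 5.10) and from 5.14 to 5.96 in SD pools (median 5.46), and it was higher after SD in all 39 lines, with overlap between the lower SD and the upper Ctr pools. The change of 0.36 ± 0.027 (SE, adjusted p = 1.02e-16) ran from 0.00 in BXD45 to 0.80 in BXD95.

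**Figure D3:**
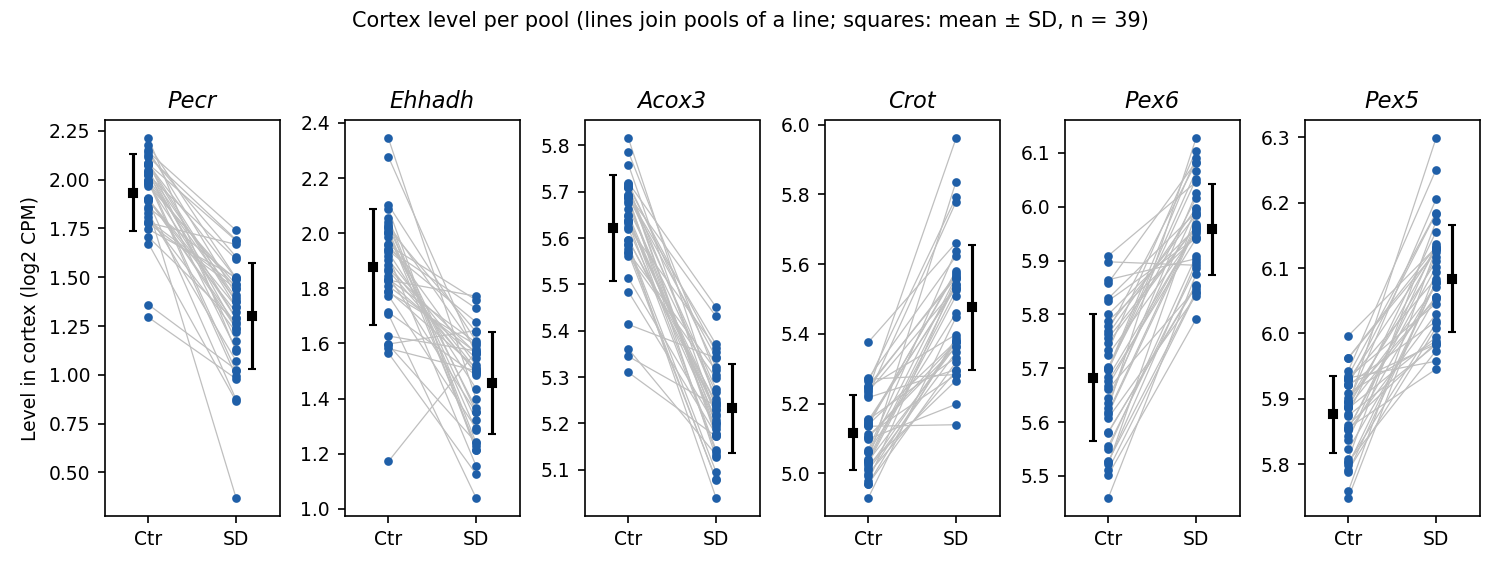
Cortex level (log2 CPM) of 6 members in the 39 Ctr and 39 SD pools; grey lines join the pools of a line, and black squares with bars are the mean ± standard deviation. Pecr and Acox3 fall and Crot rises in every line, while the Ctr and SD ranges of all 6 genes overlap.

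Among the 16 peroxin genes listed in cortex, 6 rose, 8 fell and 2 did not pass. Pex6, an ATPase of receptor export, ran from 5.46 to 5.91 in Ctr pools (median 5.68) and from 5.79 to 6.13 in SD pools (median 5.96), and rose by 0.28 ± 0.017 (SE, adjusted p = 2.43e-19) in 38 of 39 lines. The ranges overlapped at the top of the Ctr and the bottom of the SD range. Its anchor Pex26 changed the other way, by -0.055 ± 0.018 (SE, adjusted p = 0.00546).

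Among receptors and docking factors, Pex5, the receptor of most matrix proteins, ran from 5.75 to 6.00 in Ctr pools (median 5.89) and from 5.95 to 6.30 in SD pools (median 6.08). The ranges met only at their ends, and Pex5 rose in all 39 lines, by 0.21 ± 0.015 (SE, adjusted p = 3.2e-17). The docking gene Pex13 rose by 0.16 in 38 of 39 lines, while its partner Pex14 fell by 0.15 and the receptor Pex7, which reads the N-terminal signal of enzymes such as Phyh, fell by 0.15. Pex5l rose by 0.048 ± 0.018 (SE, adjusted p = 0.0161), and this call was lost without the block (adjusted p = 0.146) and under quantile normalization (0.007, adjusted p = 0.718).

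The ubiquitin ligase gene Pex10 fell by 0.14 in 36 of 39 lines, and Pex2 did not pass (-0.008 ± 0.02, adjusted p = 0.747). Of the membrane assembly genes, Pex3 fell by 0.15 in 38 of 39 lines and Pex19 by 0.077 in 36 of 39, whereas Pex16 did not pass (-0.033 ± 0.023). The elongation gene Pex11a rose by 0.09 ± 0.038 (SE, adjusted p = 0.0318) in 28 of 39 lines, a call that was lost in the 33 BXD/RwwJ lines alone and without BXD49, BXD50, BXD70 or BXD87 (adjusted p = 0.0504 to 0.0566).

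Of the transporters, Abcd2, which loads very-long-chain acyl-CoAs, fell by 0.13 ± 0.021 (SE, adjusted p = 1.54e-07) in 36 of 39 lines. Abcd3 and Abcd4 did not pass (0.01 ± 0.01 and -0.03 ± 0.024).

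The same question in liver gave fewer calls. Of the 38 members, 16 passed (42.1%), beside 53.9% of all genes listed in liver. A rise was called for 6 members, beside 26% of all genes, and a fall for 10, beside 27.9%. The median absolute change was 0.048 over the members and 0.117 over all genes. The calls were unevenly spread over the roles, with 12 of 17 peroxin genes, all 4 ABC transporters and none of the 16 oxidation enzymes, Crot and Cat included. Among these enzymes, Cat, Phyh, Scp2, Crot, Acaa1a and Acaa1b had low slopes of liver reads on library total. The called transporter Abcd3 had a low slope too. The part of this slope in the uneven spread of calls was not tested. Without DB-F1 and BXD70, 10 members rose and 11 fell (55.3% called, beside 56.2% of all genes). With the library total of each pool as a covariate 10 rose and 14 fell (63.2%, beside 56.5%). The lower share of members called in the main fit was thus not seen with the covariate, and was small without both lines. In these fits 4 and 8 of the 16 enzymes passed, with changes of all 16 between -0.062 and 0.067. Leaving out DB-F1 alone brought calls for Ech1 (0.062), Hacl1 (0.053), Hsd17b4 (0.047) and the peroxin Pex13 (0.051), and leaving out BXD70 alone brought calls for Acox3 (0.065) and Pecr (-0.054). Some single other lines did the same for Ech1, Hacl1 (BXD50), Hsd17b4 (BXD51 or BXD75) and Pex13 (BXD55), at changes of at most 0.062. Under quantile normalization Decr2 (-0.052), Ehhadh (-0.032) and Pecr (-0.056) passed. Ctr and SD ranges overlapped for every member, and were separate for 0.121% of all genes.

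The oxidation enzymes stood close to 0 in liver, between -0.043 (Pecr) and 0.054 (Ech1). Cat ran from 8.60 to 9.39 in Ctr pools (median 8.88) and from 8.63 to 9.26 in SD pools (median 8.94), over nearly the same range. Its change was 0.005 ± 0.025 (SE, adjusted p = 0.868), and with the library total as a covariate it was -0.017 (adjusted p = 0.00454). Ppara ran from 8.49 to 9.14 in Ctr pools (median 8.78) and from 8.02 to 9.13 in SD pools (median 8.80), with a change of -0.004 ± 0.028 (SE, adjusted p = 0.924). The lowest SD pool of Ppara was BXD70, with a change of -0.80, and without BXD70 and DB-F1 the mean change was 0.021 (adjusted p = 0.419).

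The member that changed most in liver was Abcd2. Its level ran from 0.99 to 6.80 in Ctr pools (median 4.34) and from 0.65 to 5.91 in SD pools (median 3.27). The ranges overlapped almost completely, because lines differed far more than conditions did. Within lines it fell in 33 of 39, by 0.89 ± 0.14 (SE, adjusted p = 4.14e-07), a fold of 1.86 lower. The change ran from -3.63 in BXD71 to 0.51 in BXD49, and the fall was over 1 in 12 lines. Without BXD70 and DB-F1 the change was -0.94. Abcd2 is also expressed in adipocytes. Of the 5 adipocyte markers examined, Adipoq, Plin1, Lep and Retn were not listed in liver. Cfd was listed, at 0.147 to 27.5 CPM in Ctr pools and 0.149 to 26.6 CPM in SD pools, and rose by 0.47 (adjusted p = 0.0448) in 24 of 39 lines. B cell markers fell in liver, all 4 of them, from a summed 6.44 to 26.4 CPM in Ctr pools to 2.3 to 12.7 CPM in SD pools. Of the neuron list, Syt1 fell by 0.82 in all 39 lines and Rbfox3 did not pass (-0.24, adjusted p = 0.115). Of the 4 listed markers of liver sinusoidal endothelium 3 rose and 0 fell. Of the Kupffer cell markers 1 rose and 2 fell of 5, and of the stellate cell markers 0 rose and 2 fell of 5. The part of these cell types in the liver changes was not tested.

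**Figure D4:**
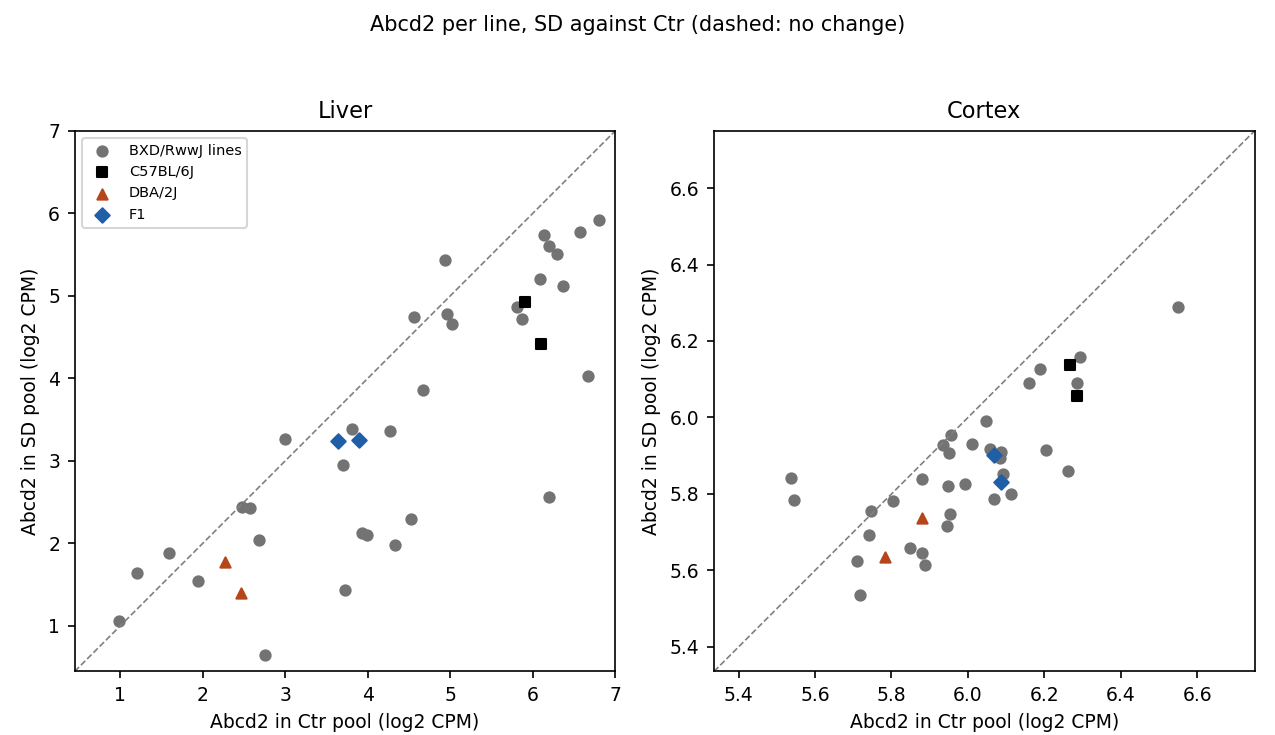
Abcd2 level in the SD pool against the Ctr pool of each line (log2 CPM) in liver (left) and cortex (right), by kind of line, with the dashed line marking no change and different axes in the panels. In liver the points span 0.99 to 6.80 in Ctr pools with the DBA/2J pools low and the C57BL/6J pools high, and 33 of 39 lie below the dashed line; in cortex the Ctr pools span 5.54 to 6.55.

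Abcd4 and Abcd3 also passed in liver. Abcd4, which works in lysosomal cobalamin export rather than in peroxisomes, ran from 5.08 to 5.92 in Ctr pools (median 5.52) and from 5.21 to 6.43 in SD pools (median 5.64), and rose by 0.21 ± 0.043 (SE, adjusted p = 4.61e-05) in 33 of 39 lines. Its ranges overlapped except for the highest SD pools. Abcd3 fell by 0.094 in 30 of 39 lines.

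The proliferation genes moved apart in liver. Pex11g ran from 5.93 to 6.51 in Ctr pools (median 6.33) and from 5.67 to 6.35 in SD pools (median 6.06), and fell by 0.25 ± 0.026 (SE, adjusted p = 1.13e-11) in 36 of 39 lines. Pex11a, a known PPARalpha target, ran from 5.17 to 5.89 in Ctr pools (median 5.60) and from 5.47 to 6.08 in SD pools (median 5.81), and rose by 0.22 ± 0.03 (SE, adjusted p = 3.29e-08) in 35 of 39 lines. Both genes overlapped over much of their range.

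All 3 membrane assembly genes fell in liver. Pex3, the docking factor for membrane proteins, ran from 6.45 to 6.94 in Ctr pools (median 6.64) and from 6.12 to 6.89 in SD pools (median 6.44), and fell by 0.19 ± 0.021 (SE, adjusted p = 2.91e-10) in 36 of 39 lines. Pex16, which recruits PEX3, ran from 7.07 to 7.51 in Ctr pools (median 7.28) and from 6.80 to 7.73 in SD pools (median 7.04), and fell by 0.18 ± 0.028 (SE, adjusted p = 3.82e-07) in 33 of 39 lines. The highest SD pool of each lay within or above the Ctr range. Pex19, the cytosolic chaperone of membrane proteins, fell by 0.14 in 35 of 39 lines.

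Of the receptor export genes, Pex6 and Pex26 rose in liver. Pex6 ran from 7.64 to 7.96 in Ctr pools (median 7.79) and from 7.76 to 8.5 in SD pools (median 7.92), and rose by 0.15 ± 0.023 (SE, adjusted p = 2.98e-07) in 36 of 39 lines. Its highest SD pool was BXD70, with a change of 0.71. Pex26 ran from 5.91 to 6.88 in Ctr pools (median 6.28) and from 5.99 to 7.12 in SD pools (median 6.46), and rose by 0.14 ± 0.043 (SE, adjusted p = 0.00592) in 27 of 39 lines. The ligase gene Pex10 fell, with 3.97 to 4.81 in Ctr pools (median 4.35), 3.68 to 4.71 in SD pools (median 4.2) and a change of -0.15 ± 0.042 (SE, adjusted p = 0.00233). Ranges overlapped for all 3 genes. Pex2 rose by 0.049 (adjusted p = 0.0308, 0.0517 without the block, 0.0519 without BXD48a and 0.101 under quantile normalization).

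Of the import receptors, Pex5 fell by 0.077 in 32 of 39 lines and Pex7 by 0.059 in 30 of 39, while Pex13 and Pex14 did not pass (0.041 ± 0.021 and -0.009 ± 0.02). Pex5l was near the limit of counting in liver, with a mean of 2.9 reads, and its change of -0.33 ± 0.18 (SE, adjusted p = 0.123) is not interpretable as a direction.

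The design allows the responses of the tissues to be compared within lines. Over the 36 members listed in both tissues, the change differed between liver and cortex for 26 (72.2%), beside 57.6% of the 12695 genes listed in both. Of these 36, 2 rose in both tissues (Pex6 and Pex11a), beside 15.3% of the shared genes, and 6 fell in both, beside 15.5%, among them Abcd2, Pex3, Pex7, Pex10 and Pex19. The calls were opposite for 3, Pex5 and Pex26 among them, beside 12.9% of the shared genes. Pecr differed by 0.59 ± 0.053 (SE, adjusted p = 6.72e-13), with the liver change the higher in 37 of 39 lines, and Acox3 by 0.44 ± 0.032 (SE, adjusted p = 1.23e-15), higher in all 39. The fall of Pecr and Acox3 in cortex thus had no counterpart of that size in liver, where their changes were -0.043 and 0.051. Ehhadh differed by 0.40 ± 0.045 (SE, adjusted p = 3.25e-10), higher in liver in 37 of 39 lines. Crot differed by -0.34 ± 0.038 (SE, adjusted p = 2.75e-10), with the higher change in cortex in 36 of 39 lines. In liver the slope of Crot on library total was 0.39. The largest difference in size, that of Abcd2 at -0.76 ± 0.14 (SE, adjusted p = 1.16e-05), did not pass without the line as a block (adjusted p = 0.0788). The calls of Decr2, Pex11a and Pex19 were lost in the same fit (adjusted p = 0.0509, 0.0521 and 0.178). That of Pex19 was also lost with median-centred libraries (adjusted p = 0.0699) and in the 33 BXD/RwwJ lines (adjusted p = 0.0512). The call of Pex11a was also the least stable, lost in 24 of 47 alternatives, most of which left out a single line (adjusted p up to 0.125).

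Another question was how far lines differed, since the lines share the parental alleles in different mixtures. Levels varied little for most members. The standard deviation over the 39 Ctr pools had a median of 0.104 over the members in cortex, beside 0.137 over all genes, and of 0.131 in liver, beside 0.201. All genes were not matched to the members in depth, and in liver 23 of 38 members had 0.2 or more reads per exonic base. The part of read depth and density in these lower medians was not tested. A difference between lines was called for 21 of 36 members in cortex (58.3%), beside 55.5% of all genes, and for 32 of 38 in liver (84.2%), beside 62.1%. In this test the Ctr and SD pools of a line serve as its replicates. They came from shared cohorts, so cohort and line cannot be told apart in this test. With the 33 BXD/RwwJ lines alone, 50.0% of the members in cortex passed, beside 50.4% of all genes, and 76.3% in liver, beside 59.0%. Quantile normalization gave 52.8% in cortex, beside 55.6%, and 73.7% in liver, beside 61.2%. Median-centred libraries gave 52.8% in cortex, beside 55.9%, and 89.5% in liver, beside 61.5%. The line test was not run without BXD70 and DB-F1, nor with the library total as a covariate.

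In cortex the thiolase genes Acaa1a and Acaa1b varied most. Both encode the 3-ketoacyl-CoA thiolase that closes the beta-oxidation cycle, and both lie on chromosome 9, Acaa1a at chr9:119250412-119259413 (+) and Acaa1b at chr9:119057141-119066211 (-) in mm9. Their coding sequences in GENCODE vM1, 1275 bases each, are 96.5% identical, with 44 differing bases and a longest identical run of 327 bases. For a read of 100 bases, 24.1% of the coding windows are the same in both genes, so that their reads may be split or lost in counting and the levels are uncertain. To show how the genes can be told apart, the coding bases 453 to 552, the stretch of 100 bases with the most differences, are given here with the 14 differing bases in capitals.
Acaa1a: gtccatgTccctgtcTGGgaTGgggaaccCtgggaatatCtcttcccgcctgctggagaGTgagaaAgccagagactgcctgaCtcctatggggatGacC
Acaa1b: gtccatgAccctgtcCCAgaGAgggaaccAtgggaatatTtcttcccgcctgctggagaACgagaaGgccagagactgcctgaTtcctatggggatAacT

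The 33 BXD/RwwJ lines stood on either side of a gap in Acaa1a level in Ctr cortex. In 19 lines Acaa1a ran from 3.89 to 4.37, and in 14 lines from 5.00 to 5.41, with no line between. Acaa1b had its own gap from -0.49 to 0.91 and ran the other way. The same 14 lines that lay above the gap of Acaa1a lay below that of Acaa1b, at -2.41 to -0.49, and the other 19 lay at 0.91 to 1.63. The C57BL/6J pools had 5.33 and 5.17 for Acaa1a, and -0.77 and -1.84 for Acaa1b. The DBA/2J pools had 4.06 and 4.12 for Acaa1a, and 1.23 and 1.37 for Acaa1b. The parents thus stood on opposite sides of both gaps, and both F1 pools stood between, with 4.67 and 4.72 for Acaa1a and 0.27 and 0.08 for Acaa1b. The moderated F statistic of line was 63.2 for Acaa1a (adjusted p = 6.55e-28) and 38.4 for Acaa1b (adjusted p = 3.21e-23).

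The lines were set apart here by their own values, so their levels are a description, with no test. The sum of both was 17.1 to 23.8 CPM in the 19 lines below the Acaa1a gap and 32.4 to 43.2 CPM in the 14 above it, so that the higher Acaa1b of the former did not bring their sum to that of the latter. Acaa1b made up 9.27% to 14.4% of it in the former and 0.447% to 1.76% in the latter. Acaa1b rested on a mean of 35 reads, and its repeat C57BL/6J pools differed by 1.06. The groups were as separate in SD pools, at 3.92 to 4.30 and 5.19 to 5.44 for Acaa1a. In liver no such gap was seen. Acaa1a ran there from 7.34 to 7.85 in the 19 lines and from 7.27 to 7.63 in the 14 lines, with slopes on library total of 0.35 for Acaa1a and 0.14 for Acaa1b. Reads were aligned to the mm9 reference, which is C57BL/6J, and the part of read mapping in the cortex difference was not tested. After SD in cortex, Acaa1a ran from 3.92 to 5.44 (median 4.29), beside 3.89 to 5.41 (median 4.37) in Ctr pools, and rose by 0.068 ± 0.023 (SE, adjusted p = 0.00629) in 33 of 39 lines, a call that was lost without the block (adjusted p = 0.633) and in the 33 BXD/RwwJ lines alone (adjusted p = 0.0545). Acaa1b did not pass (0.074 ± 0.065, adjusted p = 0.298), but passed under quantile normalization (0.172, adjusted p = 0.0132).

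**Figure D5:**
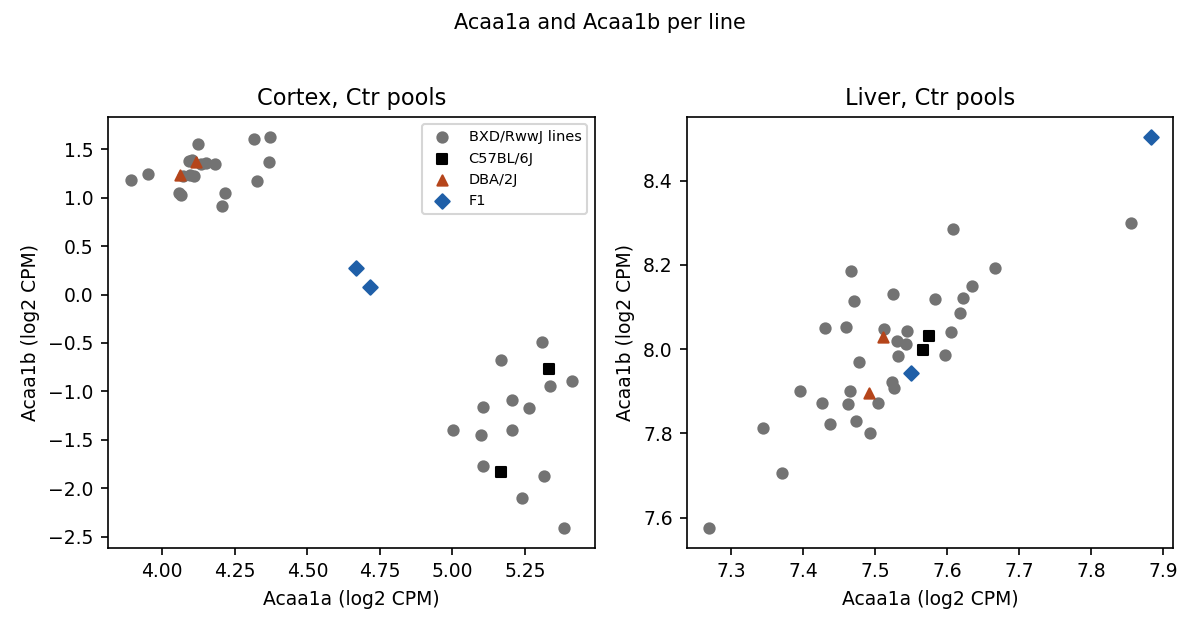
Level of Acaa1b against Acaa1a (log2 CPM) in the Ctr pools of cortex (left) and liver (right), each point a pool, by kind of line, with different axes in the panels. In cortex 19 BXD lines sit with the DBA/2J pools at the upper left and 14 with the C57BL/6J pools at the lower right, with both F1 pools between, and in liver the kinds of line are mixed.

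Because both thiolase genes differed by line in opposite directions, their promoters are shown from RefSeq (GRCm38.p6, 250 bases before to 50 after the start, read along the gene), that of Acaa1a at chr9:119341044-119341343 (+) and that of Acaa1b at chr9:119157044-119157343 (-). Capitals mark CCAAT on either strand, and a match that overlaps another is marked once.
Acaa1a: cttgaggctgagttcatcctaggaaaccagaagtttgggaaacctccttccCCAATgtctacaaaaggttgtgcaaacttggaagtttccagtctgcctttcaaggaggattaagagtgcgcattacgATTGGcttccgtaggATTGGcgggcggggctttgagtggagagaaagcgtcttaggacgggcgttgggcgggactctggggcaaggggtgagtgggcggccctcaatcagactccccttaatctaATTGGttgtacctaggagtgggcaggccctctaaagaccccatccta
Acaa1b: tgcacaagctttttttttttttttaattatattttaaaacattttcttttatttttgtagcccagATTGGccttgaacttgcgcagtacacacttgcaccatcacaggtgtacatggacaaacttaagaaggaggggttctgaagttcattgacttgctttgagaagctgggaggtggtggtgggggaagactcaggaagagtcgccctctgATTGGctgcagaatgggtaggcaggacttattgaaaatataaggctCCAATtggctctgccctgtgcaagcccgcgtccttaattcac
Both hold CCAAT, as do 37.4% of the 32851 promoters in the table and 12 of the 31 promoters matched to 26 members. The half-site AGGTCA, bound by many nuclear receptors, is in neither, and on either strand it is in 16.3% of all promoters and in those of Cat, Pex11g, Phyh and Scp2. The direct repeat of AGGTCA with 1 base of any kind between (DR1), the form bound by PPARalpha with RXR, is in 0.0396% of all promoters and in none of these 31. With 13 exact matches in 32851 promoters, none could be awaited in 31, so this absence tells nothing about the members. Inexact repeats and sites outside these stretches were not searched.

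The other cortex members with the widest spread were Ppara, Abcd2 and Ehhadh. Ppara had a standard deviation of 0.24 over Ctr pools and an F of 2.68 (adjusted p = 0.00241). Abcd2 ran from 5.54 to 6.55 in Ctr cortex (median 5.99), with a standard deviation of 0.21 and an F of 8.18 (adjusted p = 5.79e-10). DBA/2J pools were lower than C57BL/6J pools by 0.44 for Abcd2, more than the 0.10 between repeat pools. Ehhadh also had a standard deviation of 0.21, but no line difference was called (F of 1, adjusted p = 0.527). With less spread, Cat had a larger F in cortex, 10 (adjusted p = 1.54e-11).

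In liver the spread of Abcd2 exceeded that of every other member, with a standard deviation of 1.68 over Ctr pools and an F of 14.3 (adjusted p = 5.8e-14). The C57BL/6J pools had 6.10 and 5.91 and the DBA/2J pools 2.46 and 2.27, a difference of -3.64 beside 0.19 between repeat pools. The F1 pools stood between, at 3.89 and 3.64. The 33 BXD lines ran from 0.99 in BXD66 to 6.80 in BXD98. Their values were spread over this range, with a widest gap of 0.79 between 5.02 and 5.81 that left 22 lines below and 11 above. After SD, BXD71 went from 6.19 to 2.56 and BXD61 from 6.67 to 4.03, while BXD98 went from 6.80 to 5.91 and BXD66 from 0.99 to 1.05. These lines were picked after their values were seen.

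The next in liver was Pex5l, with a standard deviation of 1.24 and levels of -2.77 to 1.23 in Ctr pools (median -1.06) and of -2.75 to 0.84 in SD pools (median -1.72). F was 3.95 (adjusted p = 5.25e-05) at a mean of 2.9 reads. The DBA/2J pools had 0.75 and 0.77 and the C57BL/6J pools -0.77 and -1.14, and the part of counting error in this difference was not tested. Pex10 (F of 2.02, adjusted p = 0.0231) had DBA/2J pools higher by 0.48, and Pex26 (F of 1.43, adjusted p = 0.156) showed no line difference that passed.

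Other genes of the pathway were counted from lists. Among PPARalpha targets outside the members, 10 of the 21 listed in cortex rose and 3 fell (61.9% called, beside 76.3% of all genes), and in liver 16 of 27 rose and 2 fell (66.7%, beside 53.9%). In liver the lipoprotein lipase inhibitor Angptl4 rose by 0.98 ± 0.047 (SE) and the acyl-CoA thioesterase Acot1 by 0.95 ± 0.065, each in all 39 lines, and the lipid droplet gene Cidec by 0.97 ± 0.1. The kinase gene Pdk4, which restrains pyruvate oxidation, fell by 0.95 ± 0.095. In cortex Angptl4 rose by 0.59 ± 0.08, whereas the fatty acid transporter Cd36 and the mitochondrial carrier Ucp3 fell by 0.69 ± 0.099 and 0.50 ± 0.049. All 7 values passed, with adjusted p-values of at most 2.59e-08.

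The shares called in the next lists stand beside 76.3% of all genes in cortex and 53.9% in liver. Of 10 nuclear receptors and cofactors, 6 rose and 1 fell in cortex (70.0% called), and 4 rose and 4 fell in liver (80.0%). Ppard rose in cortex by 0.23 ± 0.019 and the PPAR partner Rxra by 0.15 ± 0.016. In liver Pparg fell by 0.69 ± 0.061 and Rxrg by 0.48 ± 0.055, while Rxrb rose by 0.30 ± 0.025. Of the other matrix enzymes, 8 of 24 rose and 3 fell in cortex (45.8%), and 8 of 29 rose and 4 fell in liver (41.4%). The largest was Pipox, the pipecolic acid oxidase, at -0.88 ± 0.066 in cortex in all 39 lines, and in liver Ddo, the D-aspartate oxidase, rose by 0.23 ± 0.035 and the protease Lonp2 fell by 0.12 ± 0.019. Of the membrane, tethering and fission genes, 5 of 15 rose and 7 fell in cortex (80.0%), and 3 of 13 rose and 3 fell in liver (46.2%). Far1, of ether lipid synthesis, rose by 0.19 ± 0.017 in cortex. Pxmp4, a membrane protein of unsettled role, fell by 0.22 ± 0.026 in cortex and rose by 0.23 ± 0.024 in liver, and the tether Acbd5 fell by 0.16 ± 0.018 in liver.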

How the data were processed

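Cerebral cortex and liver RNA was pooled by line and condition and sequenced by the authors in single-end reads of 100 bases from stranded mRNA libraries. The deposited values are log2 CPM. Per the study's methods and the submitters' processing notes, the authors checked reads with FastQC, aligned them to mm9 with STAR, counted them by strand on RefSeq genes with HTSeq, left out genes with few reads and normalized them with TMM in edgeR, each tissue apart. Versions of STAR, HTSeq and edgeR are not given in the sources used here. A prior count (mean 0.999 reads) was undone here, and 100% of the values came out as whole reads within a tolerance of 0.02 reads. These reads served for depth, read density and the voom fit.

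The 156 libraries of the study entered, and 16 libraries of 4 BXD/TyJ lines entered the fit of all 43 pools only. SD and Ctr were compared by limma 3.58.1 in R 4.3.3 (a variance trend and the line as replicate block), and a p under 0.05 after Benjamini-Hochberg adjustment across every gene the tissue's table lists was called. Pools of a line correlated in their deviations from the condition means (lowest 0.299 in cortex and 0.169 in liver, medians 0.614 and 0.475). They share a genotype, and the design pairs SD and Ctr mice within cohorts. The parts of genotype and cohort in this correlation cannot be told apart. The study's methods name voom without a block, and both are among the alternatives. Tissues were compared by limma on the liver minus the cortex change of each line, and lines by limma's moderated F test over 37 strains and lines with condition in the model. With pooled mice, the p-values do not measure the spread between single mice. Those of the SD test rest on the spread of the paired SD minus Ctr changes over lines. Those of the tissue test rest on the spread of the liver minus cortex difference of these changes. Those of the line test rest on what line and condition leave unexplained. The scripts were tested on simulated data.

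The members described at length are the 10 with the largest called change in each tissue, the 6 with the largest tissue difference, the 5 with the largest spread over Ctr pools of each tissue, and Ppara and Cat. Their ranges and medians are not given in every tissue and condition. Certain genes that these rules would name are not reported here, though they stay in the counts. Genes outside the members are named from lists, at most 4 per list and tissue, and are not always those with the largest change. Members, lists and rules were chosen with earlier results of these data known. Exonic lengths and coordinates are from GENCODE vM1 (mm9). Classes by peroxisomal targeting signals were not run, as protein sequences were not used here.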

Additional observations from a re-analysis of the deposited data

Results flagged for a closer look

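The SD response of 26 members differed between the tissues by the test of the difference itself, and 23 of them are given here. The values are the liver change minus the cortex change on the log2 scale. Enzymes with the higher change in liver were Pecr (0.59), Acox3 (0.44), Ehhadh (0.40), Hacl1 (0.24), Phyh (0.17), Cat (0.14), Ech1 (0.13), Scp2 (0.11) and Decr2 (0.08), and those with the higher change in cortex, Ppara included, were Crot (-0.34) and Ppara (-0.22). Of the transporters, Abcd2 (-0.76) and Abcd3 (-0.10) had the lower and Abcd4 (0.24) the higher change in liver. Of the peroxins, Pex26 (0.19), Pex14 (0.14), Pex11a (0.13) and Pex7 (0.09) had the higher change in liver and Pex5 (-0.28), Pex16 (-0.15), Pex13 (-0.12), Pex6 (-0.12) and Pex19 (-0.06) the lower. The slope of reads on library total in liver was under 0.5 for dense members such as Cat, Phyh and Scp2, whose liver changes were small. It was also low for Crot (0.39) and Abcd3 (0.38). The part of this slope in these differences was not tested.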

How the results depend on the processing

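The counts of members called kept within 1.5 times of the main count in every alternative run, except for the members higher in liver. These numbered 6, and 10 without DB-F1, without BXD70 and DB-F1, and with the library total as a covariate. The fits without both lines and with the covariate were chosen after seeing the data. Leaving out each line in turn gave 5 to 10 higher and 10 to 11 lower in liver, 9 to 10 higher and 20 to 20 lower in cortex, and 25 to 28 for the tissue difference. Without the replicate block, 8 members were higher and 19 lower in cortex, 5 and 10 in liver, and 22 differed between tissues, and the calls lost by members reported here are named with their p-values above. Among the members reported here, values that turned sign all belong to changes that did not pass. In cortex these were Abcd3 under quantile normalization (-0.027, adjusted p = 0.0144, then called), Amacr in all 43 pools (-0.006; -0.007 to 0.014 when each line was left out) and Pex2 in the 33 BXD/RwwJ lines (0.005; -0.015 to 0.0003 when each line was left out). In liver, quantile normalization turned Amacr (-0.001), Cat (-0.013) and Crot (-0.009), the library total as a covariate Amacr (-0.002) and Cat (-0.017), the 33 lines Pex14 (0.006), median-centring Ppara (0.002) and the fit without BXD70 and DB-F1 Ppara (0.021). In the tissue difference, Hsd17b4 turned in the 33 lines (-0.002) and with parental pools averaged (-0.0003), and Pex10 with medians centred (0.002), in the 33 lines (0.023) and with parental pools averaged (0.002). Leaving out each line gave -0.003 to 0.017 for Cat, -0.018 to 0.001 for Pex14 and -0.013 to 0.017 for Ppara in liver, and -0.005 to 0.017 for Amacr, -0.003 to 0.012 for Hsd17b4 and -0.027 to 0.01 for Pex10 in the tissue difference. In that difference, a call was gained by Pex2 without BXD75 (0.066), Pex3 without BXD70 (-0.048) and Pex5l without certain single lines (-0.443 to -0.397). The causes were not tested. Depth limits Pex5l in liver and Acaa1b in cortex, and dense liver members by their slope on library total. Classes by targeting signal were not run.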
